A study of Mus musculus with 12 samples.

Results

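The Iroquois homeobox genes Irx1, Irx2, Irx3, Irx4, Irx5 and Irx6 were followed across bulk RNA sequencing of mouse retina at E15.5, a stage of embryonic neurogenesis. The 6 genes were taken by symbol from the 19954 genes of the deposited table of both sexes. This choice was made with earlier results of these data known, so shares of members are not independent of it. All 6 were listed and passed the filter on low counts. Each of the 12 libraries was made from a pool of 12 retinas from several litters, labelled C57BL/6. Each sex was represented by 3 wildtype and 3 mutant pools, numbered 4, 5 and 6, which makes 4 groups. Mutants carried floxed Tbr2 alleles and Six3-Cre (Six3-Cre:Tbr2f/f), which drives Cre recombinase in the embryonic retina. The labels call the controls wild type and do not say whether they carried Cre or a floxed allele. Tbr2, listed under its symbol Eomes, is a T-box transcription factor needed for intrinsically photosensitive retinal ganglion cells, the melanopsin-bearing output neurons of the retina. The comparison of genotypes asks which genes depend on Tbr2 at this stage.

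Iroquois proteins are transcription factors with a homeodomain of the TALE class, which carries a short loop insertion between its first and second helices. In mammals the genes lie in a pair of clusters, IrxA with Irx1, Irx2 and Irx4, and IrxB with Irx3, Irx5 and Irx6, and they are known for patterning the neural tube, heart and limbs. In the retina several members are expressed in ganglion cells, and Irx5 and Irx6 are known from the maturation of cone bipolar cell types, which form after this stage.

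On mm10, Irx1 (ENSMUSG00000060969) lies at chr13:71957921-71963723 on the minus strand. Irx2 (ENSMUSG00000001504) at chr13:72628820-72634198 and Irx4 (ENSMUSG00000021604) at chr13:73260479-73269608 are on the plus strand, and the 3 genes span 1311.7 kb. In the other cluster, spanning 882.4 kb, Irx3 (ENSMUSG00000031734) lies at chr8:91798525-91801916 on the minus strand. Irx5 (ENSMUSG00000031737) at chr8:92357796-92361456 and Irx6 (ENSMUSG00000031738) at chr8:92674288-92680956 are on the plus strand. Irx3os, a noncoding RNA gene on the opposite strand, overlaps Irx3 by 1502 bases. It had 21 to 61 counts per library, against 335 to 822 for Irx3, and since the strand setting of the counting is not given, reads in the overlap cannot be assigned with certainty.

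The 6 genes are near copies in the part that contacts DNA, which bears on how far short reads can separate them. The 60-base coding stretch for the third helix of the homeodomain is shown for each member, 5′ to 3′ on the coding strand (GENCODE M21 on GRCm38, the assembly of mm10). Lower case marks the 50 positions that are the same in all 6 genes, and capitals mark the 10 positions that differ in at least 1.
Irx1: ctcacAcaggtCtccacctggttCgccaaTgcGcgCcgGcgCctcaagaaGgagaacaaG
Irx2: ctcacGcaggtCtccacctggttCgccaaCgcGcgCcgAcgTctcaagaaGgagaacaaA
Irx4: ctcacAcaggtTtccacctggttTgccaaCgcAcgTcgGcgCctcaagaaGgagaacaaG
Irx3: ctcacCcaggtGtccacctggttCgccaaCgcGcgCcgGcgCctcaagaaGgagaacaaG
Irx5: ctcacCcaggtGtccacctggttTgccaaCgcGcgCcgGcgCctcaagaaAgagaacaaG
Irx6: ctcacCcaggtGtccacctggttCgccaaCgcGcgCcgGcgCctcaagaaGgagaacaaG
The stretches lie at chr13:71959992-71960051 in exon 2 of Irx1, chr13:72630793-72630852 in exon 2 of Irx2 and chr13:73267652-73267711 in exon 5 of Irx4. Those of the other cluster lie at chr8:91800496-91800555 in exon 2 of Irx3, chr8:92359756-92359815 in exon 2 of Irx5 and chr8:92677365-92677424 in exon 4 of Irx6. Irx3 and Irx6 are identical over all 60 bases, and the other pairs share 52 to 58. Over whole transcripts, the longest exact run shared by a pair was 88 bases, between Irx3 and Irx6, followed by 65 between Irx2 and Irx5. Irx1 shared at most 32 bases in a row with any other member. Read length, and how reads that match 2 members were counted, are not stated in the labels or headers, so Irx3, Irx6, Irx2 and Irx5 carry this uncertainty more than Irx1.

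Total counts ran from 18514607 in mutant male 6 to 27072825 in wildtype female 4. Markers of retinal progenitors summed to 2183 to 2328 CPM (counts scaled by the total of the library) in wildtype and 2214 to 2801 CPM in mutants, and markers of ganglion cells to 1556 to 1709 and 1491 to 1751 CPM. Mutant male 6 had the highest sum of both lists, with 6 of 6 and 7 of 7 markers listed, and the fewest genes with reads. Lens markers, 8 of 8 listed, varied from 6.74 to 633 CPM in wildtype and from 4.21 to 1564 CPM in mutants, and the 3 libraries highest in the lens gene Cryaa were mutant female 5, mutant male 5 and wildtype male 5. The mitochondrial transcript mt-Nd6 was above 200 CPM in 5 libraries and below it in the other 7, and all 4 groups had libraries on both sides. Eomes was lower in all 6 mutant libraries (9.62 to 27.4 CPM) than in any wildtype library (53.5 to 76.1 CPM). The labels do not name the floxed exons of Eomes, so the remaining Eomes reads are not a measure of remaining cells.

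All 6 Iroquois genes were expressed in wildtype retina, and Irx2 stood highest. FPKM scales each count by library depth and by the length of the gene, so levels can be compared between genes. Irx2 was at 25.7 ± 2.37 FPKM in wildtype (SD, n = 6 here and for the next 5 values). Irx5 was at 12.2 ± 0.683 FPKM, Irx4 at 11.1 ± 0.749 FPKM and Irx3 at 10.1 ± 2.05 FPKM. Irx6 and Irx1 were lowest, at 5.70 ± 0.847 and 3.78 ± 0.823 FPKM. Irx5, Irx4 and Irx3 lay close together in the middle of the order.

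Each gene was set against its neighbour in this order within the same library. The order came from the same wildtype libraries, so the pairs and their direction were not fixed before the test. Irx2 exceeded Irx5 in 6 of 6 wildtype libraries, by a mean log2 ratio of 1.07 ± 0.20 (SD, n = 6; exact two-sided sign-flip permutation p = 0.0312, 0.0521 after Benjamini-Hochberg adjustment over 5 pairs). Irx3 exceeded Irx6 by 0.82 ± 0.34 and Irx6 exceeded Irx1 by 0.61 ± 0.27, each in 6 of 6 libraries and with the same exact p, the smallest that 6 libraries allow. Irx5 and Irx4 differed by 0.14 ± 0.15 (5 of 6 libraries, n = 6, exact permutation p = 0.0625, adjusted 0.0781). Irx4 and Irx3 did not differ beyond their spread, at 0.15 ± 0.41 with Irx4 higher in 3 of 6 libraries (n = 6, exact permutation p = 0.5). Irx3 had 1 pool apart: wildtype female 6 was at 6.41 FPKM, and the other wildtype pools lay between 9.13 and 11.6 FPKM.

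In mutants the order of the means was Irx2 (25.3 FPKM), Irx5 (14.3), Irx3 (12.7), Irx4 (12.2), Irx6 (4.60) and Irx1 (1.41 FPKM). Irx3 and Irx4 did not differ beyond their spread in wildtype, where their log2 ratio was 0.01 without wildtype female 6, and Irx1 was last in both genotypes. The summed level of the 6 genes ran from 63.6 to 72.1 FPKM in wildtype and from 57.1 FPKM in mutant female 4 to 88.9 FPKM in mutant male 6. Irx1 made up 3.52% to 6.32% of that sum in wildtype and 1.08% to 3.79% in mutants. Irx2 made up 34.3% to 39.9% in wildtype and 34.4% to 36.9% in mutants.

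**Figure D1:**
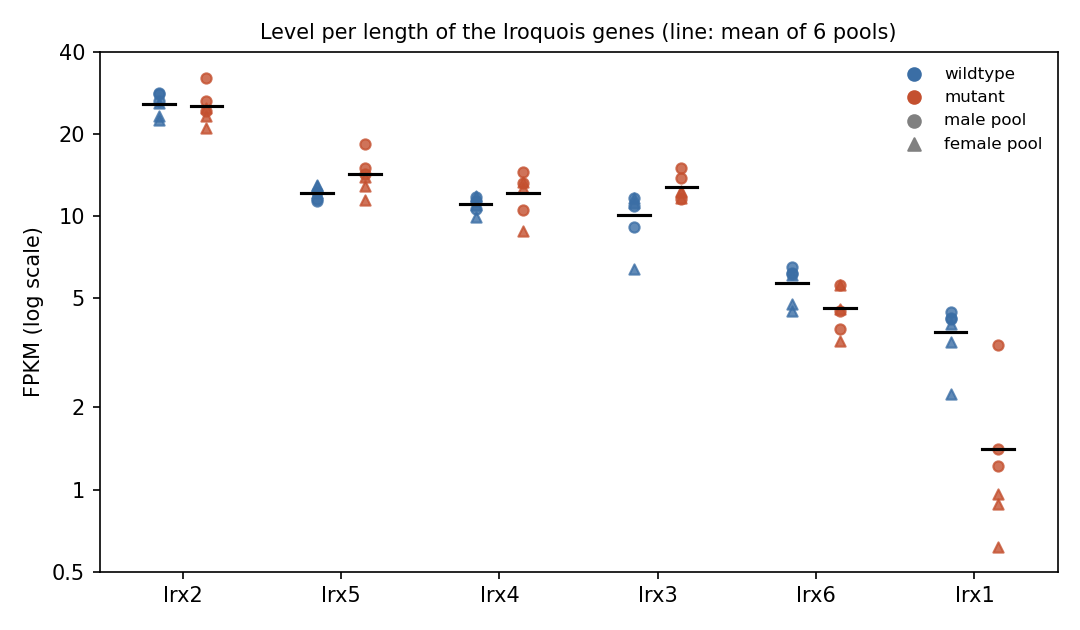
FPKM on a log axis for the 6 genes, in order of the wildtype mean, with 1 point per pool (circles males, triangles females) and a line at the mean of 6 pools. Irx2 lies highest in both genotypes, wildtype and mutant points overlap for every gene, and 5 of the 6 mutant Irx1 points lie below the lowest wildtype point at 2.24 FPKM.

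Irx1 was the member that differed most between genotypes. Wildtype males 4, 5 and 6 stood at 10.1, 9.96 and 10.6 CPM, and mutant males at 3.34, 2.90 and 7.99 CPM. Wildtype females 4, 5 and 6 stood at 5.32, 8.23 and 9.59 CPM, and mutant females at 1.46, 2.09 and 2.28 CPM. Within each sex every mutant pool lay below every wildtype pool, whereas across sexes mutant male 6 lay above wildtype female 4. These levels rest on 144 to 255 counts per wildtype library and 33 to 148 per mutant library. In bulk RNA, fewer cells that express a gene and less RNA in each cell cannot be told apart.

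The mutant mean of Irx1 was 37.3% of the wildtype mean (3.34 ± 2.37 against 8.96 ± 1.95 CPM, SD, n = 6 each). The fitted log2 fold change over both sexes was -1.53 (SE 0.27), which did not pass the edgeR quasi-likelihood test after Benjamini-Hochberg adjustment over 15467 genes (adjusted p = 0.148, unadjusted 6.71e-05). No overlap within both sexes in 1 direction was found for 1 of 6 members, Irx1, and for 0.394% of all genes tested. DESeq2 on the same counts did call Irx1 (-1.53, adjusted p = 1.22e-05). Over all alternatives the adjusted p of Irx1 ran from 1.22e-05 to 0.9999, with fold changes from -1.94 to -1.30.

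1 library weighed on the edgeR value. Without mutant male 6, the mutant pool highest in Irx1, the log2 fold change was -1.86 and edgeR called it (adjusted p = 0.000745); leaving out any other library gave -1.58 to -1.41 and no call. Mutant male 6 also had the highest sums of progenitor and ganglion cell markers and the lowest total count. Single markers of this pool went both ways. Atoh7 of the ganglion cell list was at 765 CPM, the highest of the 12 pools. Nefl and Isl1 of the same list were at 202 and 143.5 CPM, the lowest of the 12. Pax6 of the progenitor list was at 567 CPM, the lowest mutant value. The part of these features in the Irx1 value was not tested. Irx1 was at -1.94 in the 5 libraries with high mt-Nd6 and at -1.30 in the 7 with low mt-Nd6, and without the 3 libraries highest in Cryaa it was -1.45 (edgeR adjusted p = 0.9999). Irx1 in the authors' deposited table for the sexes combined had a log2 fold change of -0.366 with an adjusted p of 0.0120 and was 1 of 15 genes with an adjusted p under 0.05. The fold changes of that table are smaller in size than the ratio of the group means.

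**Figure D2:**
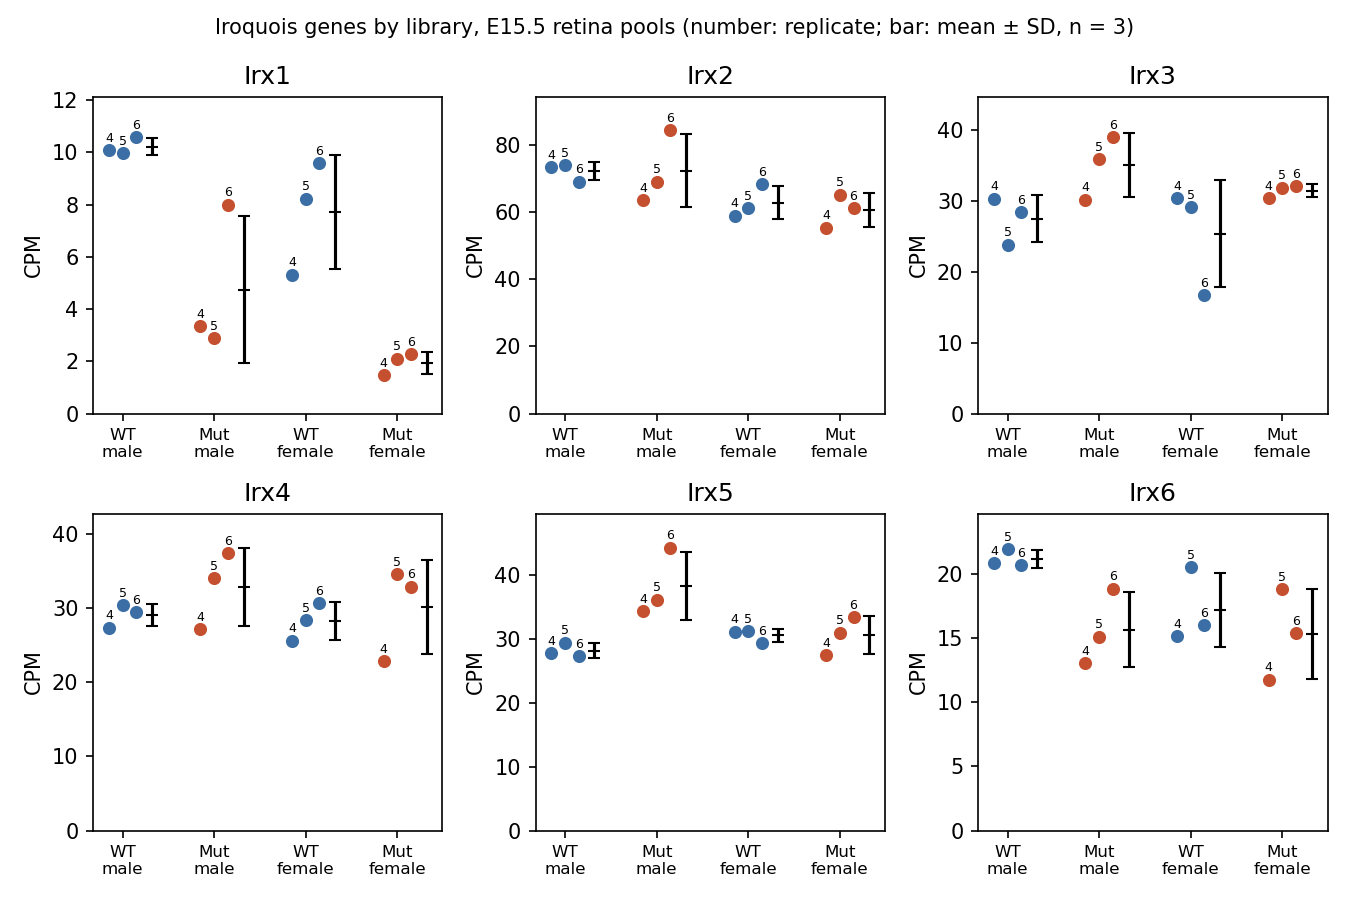
CPM of each Iroquois gene in every pool, with axes that start at 0, the replicate number beside each point, and bars for the mean ± SD of 3 pools. Irx1 lies between 5.32 and 10.6 CPM in wildtype pools and between 1.46 and 3.34 CPM in 5 mutant pools, with mutant male 6 apart at 7.99 CPM.

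Irx2 and Irx4, the other genes of the IrxA cluster, did not follow Irx1. Irx2 was at 58.9 to 74.0 CPM in wildtype (median 68.7, n = 6) and at 55.3 to 84.3 CPM in mutants (median 64.3, n = 6). The genotypes overlapped in both sexes, and the mutant mean was 98.4% of the wildtype mean. Its log2 fold change was -0.03 (SE 0.08, edgeR adjusted p = 0.943). Mutant male 6 was the highest of the 12 pools.

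Irx4, described in chick retina as a negative regulator of the axon guidance gene Slit1, was at 25.6 to 30.7 CPM in wildtype (median 28.9, n = 6) and at 22.9 to 37.4 CPM in mutants (median 33.5, n = 6). Its mutant mean was 109.9% of wildtype, and mutant pools lay on both sides of the wildtype pools in each sex. The log2 fold change was 0.13 (SE 0.10, edgeR adjusted p = 0.918). Irx4 was at 0.31 within the libraries low in mt-Nd6 and at -0.24 within those high in it. Irx2 also differed in sign between these sets, at 0.10 and -0.21.

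The genes of the IrxB cluster showed smaller differences than Irx1, in both directions. Irx3, which helps to set up ventral progenitor domains in the neural tube, was at 30.3, 23.8 and 28.5 CPM in wildtype males and at 30.2, 35.9 and 39.0 CPM in mutant males. In females it was at 30.4, 29.1 and 16.7 CPM in wildtype and at 30.4, 31.9 and 32.1 CPM in mutants. The mutant mean was 125.6% of wildtype, and the low value of wildtype female 6 contributed to this. The log2 fold change was 0.32 (SE 0.13, edgeR unadjusted p = 0.0233, adjusted 0.918) and 0.22 without that library. Irx3os was lowest in the same library, at 1.05 CPM, and between 1.59 and 3.02 CPM in the other 11.

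Irx5, a factor of cone bipolar cell maturation, was at 27.7, 29.4 and 27.2 CPM in wildtype males and at 34.3, 36.1 and 44.2 CPM in mutant males. In females it was at 31.1, 31.1 and 29.3 CPM in wildtype and at 27.4, 30.9 and 33.3 CPM in mutants. All mutant males lay above all wildtype males, while the females overlapped. Over both sexes the log2 fold change was 0.21 (SE 0.09, edgeR unadjusted p = 0.0403, adjusted 0.918), and 0.14 without mutant male 6.

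Irx6, known from a cone bipolar cell type of the OFF pathway, was at 20.8, 22.0 and 20.7 CPM in wildtype males and at 13.1, 15.1 and 18.9 CPM in mutant males. In females it was at 15.1, 20.5 and 16.0 CPM in wildtype and at 11.8, 18.8 and 15.4 CPM in mutants. Males did not overlap and females did, and the mutant mean was 80.7% of wildtype. The log2 fold change was -0.31 (SE 0.13, edgeR unadjusted p = 0.0287, adjusted 0.918). In the sets with high and low mt-Nd6 it was -0.56 and -0.27.

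Over both sexes, edgeR called 0 of 6 members, where it called 0.0259% of all genes tested. DESeq2 called 1 of 6, Irx1, and 0.097% of all genes, and limma voom called 0 of 6 (Irx1 adjusted p = 0.0540). At an unadjusted p under 0.05, 4 of 6 members stood apart in edgeR, Irx3 and Irx5 higher in mutants and Irx1 and Irx6 lower, where 2.92% of all genes did (1.42% higher and 1.5% lower). The median log2 fold change of the 6 members was 0.05, and that of all genes tested was -0.01. Of all genes tested, 52.7% had a log2 fold change below 0, the share to set beside the directions in each list.

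The genotype difference was also taken within each sex. In males edgeR called 0 of 6 members and 0% of all genes, DESeq2 called 0 of 6 members and 0.0401% of all genes, and limma voom called 0 of 6. At an unadjusted p under 0.05, 4 of 6 members stood apart against 1.41% of all genes: Irx1 at -1.10 (SE 0.37), Irx6 at -0.43 (SE 0.16), Irx3 at 0.35 (SE 0.14) and Irx5 at 0.45 (SE 0.13). Irx1, Irx5 and Irx6 had no overlap of genotypes in males, 3 of 6 members against 5.38% of all genes. Without mutant male 6 the male value of Irx1 was -1.70 (edgeR adjusted p = 0.198, range over alternatives 0.198 to 1.0). Without mutant male 5, 1 member had an unadjusted p under 0.05.

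In females the genotype difference of Irx1 stood alone among the members. Its log2 fold change was -1.98 (SE 0.27, edgeR unadjusted p = 7.30e-05, adjusted 0.546), from 7.71 ± 2.18 CPM in wildtype to 1.95 ± 0.428 CPM in mutants (SD, n = 3 each). EdgeR called 0 of 6 members, against 0.00669% of all genes, and 1 of 6 was at an unadjusted p under 0.05, where 2.63% of all genes were. Replicate numbers were taken as pairs of female libraries from these same data and not from the labels. In the fit blocked by that number, edgeR called Irx1 at -1.97 (adjusted p = 0.0299), as 1 of 2 genes called (0.0134%). Because the block was picked from the same libraries, that call is no separate support. DESeq2 without the block called Irx1 in females (adjusted p = 2.45e-07, 0.0669% of all genes called). The authors' deposited table of females did so too, with a log2 fold change of -0.611 and an adjusted p of 1.81e-06. The authors' deposited table of males gave Irx1 -0.338 and did not call it (adjusted p = 0.999). The adjusted p over all alternatives ran from 2.45e-07 to 0.9999. Irx1 and Irx3 had no overlap of genotypes in females, 2 of 6 members against 8.09% of all genes, and for Irx3 the closest pools were both at 30.4 CPM. The other 5 members lay between -0.17 (Irx6) and 0.30 (Irx3).

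**Figure D3:**
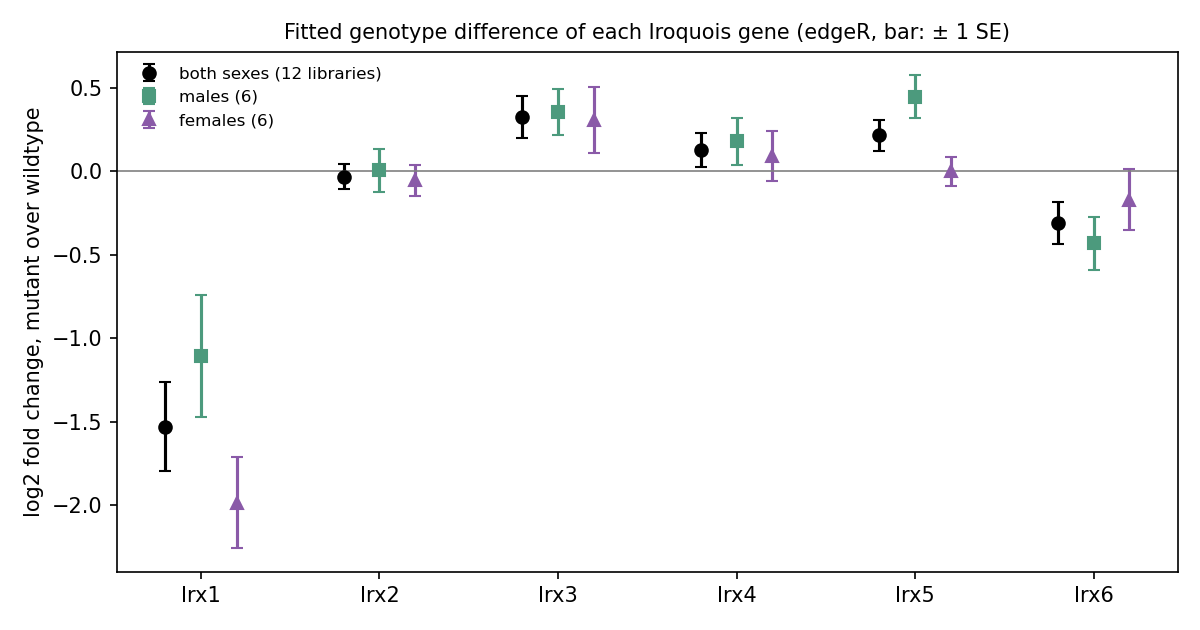
Log2 fold change of mutant over wildtype, with ± 1 SE, for each member over both sexes (12 libraries), males (6) and females (6). Irx1 lies lowest in all 3 fits at -1.53, -1.10 and -1.98, Irx2 lies near 0, and Irx5 stands at 0.45 in males and close to 0 in females.

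The difference between the sexes was tested as an interaction, given as the female minus the male log2 fold change. EdgeR called 0 of 6 members and 0% of all genes, and DESeq2 and limma voom called 0 of 6. Irx5 was the 1 member with an unadjusted p under 0.05, against 1.73% of all genes, at -0.44 (SE 0.15, edgeR unadjusted p = 0.0136, adjusted 1.0). Irx1 was at -0.87 (SE 0.49, edgeR unadjusted p = 0.101) and at -0.27 without mutant male 6. Irx6 was at 0.27 (SE 0.25), and Irx2, Irx3 and Irx4 lay between -0.08 and -0.04. Between wildtype males and females, for which no test was made, Irx1 averaged 10.2 ± 0.326 and 7.71 ± 2.18 CPM and Irx2 72.1 ± 2.71 and 62.8 ± 4.93 CPM (SD, n = 3 each).

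Irx1 varied with Eomes from pool to pool among the mutants, and it also varied with Irx5 (r 0.984) and Irx2 (r 0.941). The relation with Eomes was adjusted over 2 relations. Those with Irx5 and Irx2 were adjusted over 30 and did not pass. Mutant females 4, 5 and 6 had 9.62, 15.2 and 16.1 CPM of Eomes, and mutant males 5, 4 and 6 had 21.2, 24.9 and 27.4 CPM, and Irx1 had the same order over these 6 libraries. On the log2 scale Pearson's r was 0.874 (exact permutation p = 0.0181, n = 6, adjusted over 2 relations 0.0361) and Spearman's rho was 1.0 (exact permutation p = 0.00278, adjusted 0.00556). Without the 2 libraries farthest from the median of Eomes, female 4 and male 6, r was 0.998, and the pools left still spanned both sexes. Mutant males were higher than mutant females in both genes, and 3 pools per sex are too few to test the relation within one. The permutations were not kept within sex, so the difference between the sexes enters each of these values. Among the 6 wildtype libraries r was 0.549 (exact permutation p = 0.25) and rho 0.657 (exact permutation p = 0.175), and without the 2 farthest libraries r was 0.643. No correlation was pooled over genotypes, because genotype separates the libraries.

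**Figure D4:**
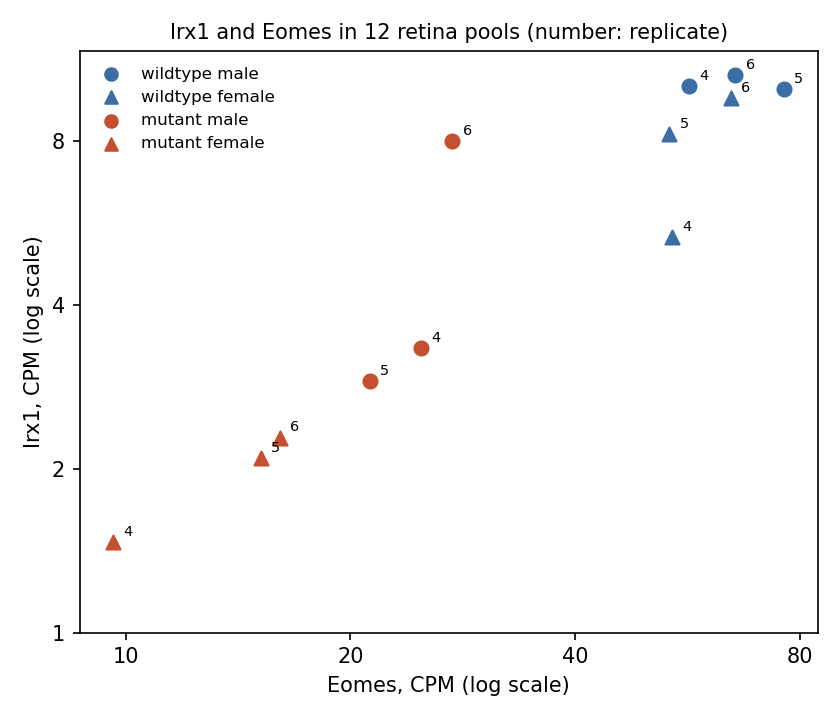
CPM of Irx1 against CPM of Eomes on log axes, 1 point per pool, coloured by genotype, with circles for males and triangles for females. The mutant points run from 9.62 and 1.46 CPM in female 4 to 27.4 and 7.99 CPM in male 6, and the wildtype points lie between 53.5 and 76.1 CPM of Eomes.

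The members were also compared with each other within a genotype, 15 pairs in each and 30 relations in all. Among mutants 15 of 15 pairs had a positive r (median 0.745, n = 6), among them Irx1 and Irx5 at 0.984. Mutant male 6 was the highest mutant library for every member. Without the 2 libraries farthest from the median of the first gene, 10 of 15 pairs had a positive r. The libraries left out differ with the first gene. Where Irx4 came first, mutant male 6 stayed in, so this count does not isolate that pool. Among wildtype libraries 7 of 15 pairs had a positive r, and Irx3 and Irx4 were opposed at -0.855 (rho -1.0). After adjustment over the 30 relations no pair passed, and the smallest adjusted p was 0.0625 for r (exact permutation tests).

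Likeness of pattern was measured as the root mean square difference of log2 CPM over the 12 libraries after centring each gene on its mean. Candidates were the 191 genes of at least 1 CPM with an SD at least 0.8 times that of Irx1, without an upper limit. Among them Eomes was the most like Irx1, with a difference of 0.34, against an SD of Irx1 of 1.02. The measure spans both genotypes, and both genes were lower in mutants, so the genotype difference enters this likeness. BC046251 (0.64) and Gm14137 (0.92) came next. For Irx2 the closest were Apba1 (0.07), Cln8 (0.07) and Ppp1r26 (0.08) of 10052 candidates. The closest to Irx4 was Prdm13 (0.07), and the closest to Irx3 was Ntn1 (0.13), which encodes the axon guidance cue netrin. Sh3yl1 (0.09) was closest to Irx5 and Ccdc184 (0.17) to Irx6. Candidates differ in number between members, so the ranks are a description within each member.

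Genes around both clusters were set beside the members. Of 56 protein-coding genes listed within 2 Mb of either cluster, 49 were tested, and 30 were higher and 19 lower in mutants. No call was made by edgeR (0 of 49), DESeq2 (0) or limma voom (0), and edgeR gave 0 at an unadjusted p under 0.05. Their median log2 fold change was 0.02. Among the 43 with at least 1 CPM the values ran from -0.58 (Zfp825) to 0.30 (Pllp), so none was as low as Irx1. Few of these genes lie near Irx1, which is at -0.65 Mb from the centre of its cluster. The nearest listed neighbours were 8030423J24Rik at -1.73 Mb (mean 0.0365 CPM) and Gm10263 at 0.70 Mb (mean 0.774 CPM). The counts therefore say little about the direct surroundings of Irx1.

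**Figure D5:**
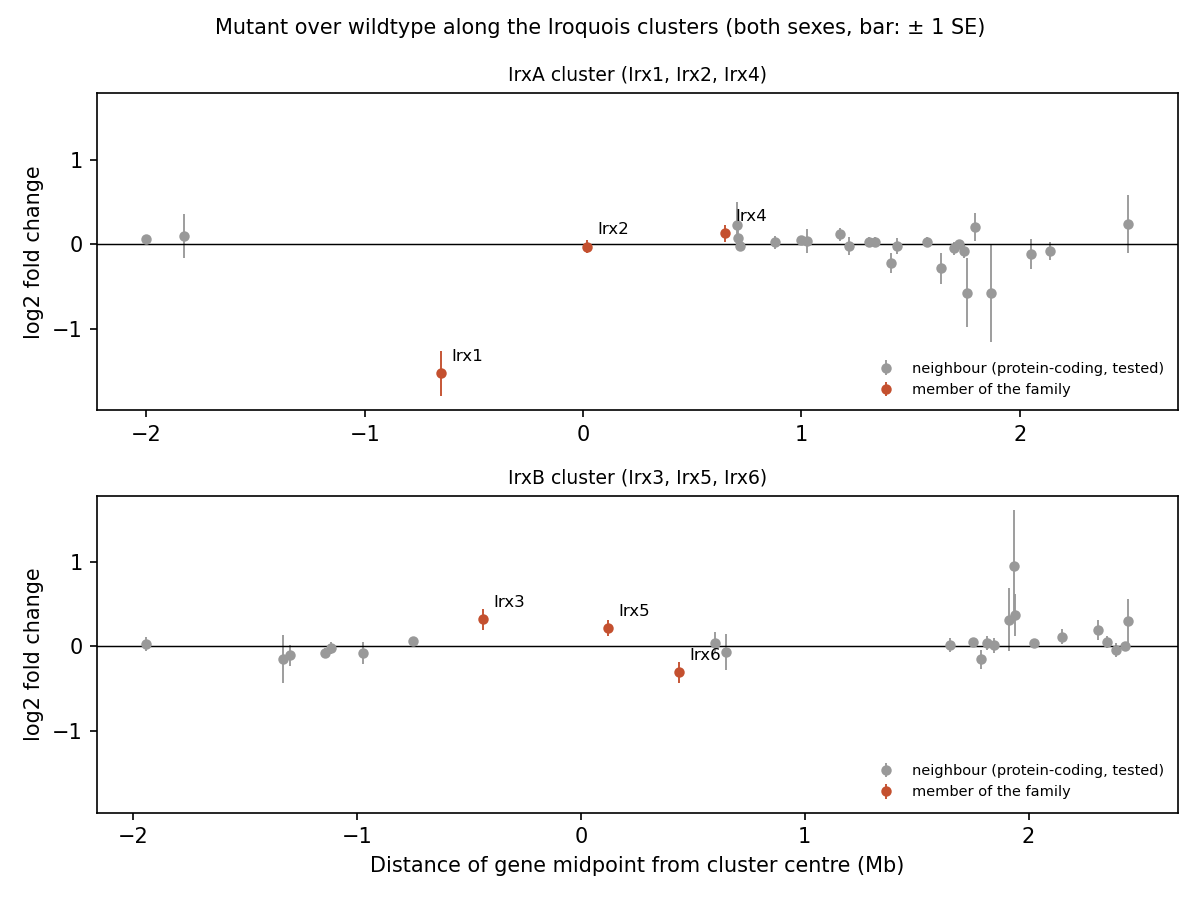
Log2 fold change over both sexes, with ± 1 SE, of the Iroquois genes (red) and of tested protein-coding neighbours (grey) against the distance of the gene midpoint from the centre of the cluster in Mb. Irx1 lies at -1.53, below every neighbour, and Irx2 and Irx4 lie near 0.

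Other TALE homeobox genes, whose Pbx and Meis products bind DNA together with other homeodomain proteins, showed no called difference. Of 12 tested, 3 were higher and 9 lower in mutants, with 0 called by edgeR, DESeq2 or limma voom and 0 at an unadjusted p under 0.05. The median log2 fold change was -0.03. The values of at least 1 CPM ran from -0.11 for Meis2, a retinal progenitor gene, to 0.26 for Tgif2, a repressor of the class.

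A list of signals and factors that act with Iroquois genes in neural patterning held 12 tested genes, 9 higher and 3 lower in mutants, with a median log2 fold change of 0.12. EdgeR, DESeq2 and limma voom called 0 of them. At an unadjusted p under 0.05 in edgeR, 2 of 12 stood apart, both higher, where 2.92% of all genes did (1.42% higher). Shh, the secreted ligand of the Hedgehog pathway made by ganglion cells in this tissue, ran from 2.64 to 5.19 CPM in wildtype pools (median 4.30, n = 6) and from 5.55 to 7.01 CPM in mutant pools (median 5.95, n = 6), with no overlap. Of all genes tested, 0.394% had no overlap within both sexes in 1 direction, and the share over all pools together was not counted. The fitted difference was 0.56 (SE 0.18, edgeR unadjusted p = 0.00689, adjusted 0.918). Ptch1, the Hedgehog receptor and a target gene of the pathway, was at 0.23 (SE 0.07, edgeR unadjusted p = 0.00765, adjusted 0.918). The other 10 had an unadjusted p above 0.05, among them Bmp4 at -0.17 and Fgf15 at -0.05.

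Slit1 and genes of bipolar cells, chosen for the known retinal roles of Irx4, Irx5 and Irx6, made a list of 7, of which 5 were tested. All 5 were higher in mutants, where 52.7% of all genes tested were lower, with 0 called by the 3 tools and 0 at an unadjusted p under 0.05. Slit1 was at 0.14 (SE 0.10) and Bhlhe23, a bipolar and amacrine cell factor, at 0.15 (SE 0.17).

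Genes known from intrinsically photosensitive ganglion cells, Eomes among them, were set beside Irx1. Of 12 tested, 3 were higher and 9 lower in mutants, with a median log2 fold change of -0.35. EdgeR called Eomes alone, at -1.76 (SE 0.15, adjusted p = 0.000484; without the 3 libraries highest in Cryaa -1.71, adjusted p = 0.131), and 6 lower, the targeted Eomes among them, and 1 higher had an unadjusted p under 0.05, where 1.5% of all genes were lower and 1.42% higher at that level. DESeq2 called 4, Eomes, Igf1 and Tbx20 lower and Lmo2 higher, and 0.097% of all genes. The T-box gene Tbx20 was at -1.08 (SE 0.21) and Lmo2, a LIM domain factor, at 0.54 (SE 0.09), both uncalled by edgeR, which did call Lmo2 without mutant female 4 (adjusted p = 0.0222). Irx1 at -1.53 lay between Eomes and Tbx20.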

How the data were processed

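RNA was measured in 12 libraries. The submitters' processing notes name CASAVA for base calling; per those notes, reads were aligned to mm10 with STAR 2.5, counted with HTSeq 0.6.1 and compared with DESeq2. The annotation release is not given in the sources used here. Per the file headers, the deposited tables hold raw read counts per gene, a normalised signal, FPKM, and the authors' log2 fold changes with p-values. The count columns of the 6 members were equal in all 3 deposited tables. CPM and FPKM used here were computed from the deposited counts, the listed gene length and the library total.

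Counts were tested with edgeR 4.0.16 (TMM, filterByExpr, two-sided quasi-likelihood test, Benjamini-Hochberg over all genes, threshold 0.05), with genotype and sex as terms over 12 libraries, in each sex alone and as an interaction. SE is the size of the fitted change divided by the root of F. Correlations and likeness used log2 CPM with a prior count of 2. Alternatives were DESeq2 1.42.0, limma voom 3.58.1, DESeq2 size factors, other filters (none, or at least 10 counts in every library), a replicate block, mt-Nd6 and Cryaa library sets, CPM without gene length for the order of levels, and leaving out each library. Tests were checked on simulated counts. P-values of the fits set a fitted difference against the spread between pools.

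Same-numbered female libraries had correlations of deviations of 0.21, 0.213 and 0.138. Differently numbered female pairs ran from -0.359 to 0.184, so the ranges overlapped. Same-numbered male libraries were at -0.205, 0.00822 and 0.292. A pairing by number was read from the data in females only, and not from the labels. As an alternative, the block was still run in every comparison, so it also treated male numbers as pairs there.

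The members and gene lists were chosen with earlier results of these data known. Named are all members, Eomes, and from each list the called genes and up to 2 per direction with the largest change at a mean of at least 1 CPM, and the genes most like each member. Candidates for likeness had at least 1 CPM and at least 0.8 times the SD of the member. Marker lists of pigment epithelium (5 of 6 listed; 17.8 to 32.8 CPM in wildtype, 18.8 to 27.1 in mutants), vessels and mesenchyme (43.9 to 60.0; 50.0 to 61.5), surface ectoderm (4 of 5 listed; 5.61 to 8.54; 4.15 to 10.3), microglia (30.5 to 38.0; 30.4 to 42.3) and blood (295 to 602; 227 to 515) were also summed.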

Additional observations from a re-analysis of the deposited data

Results flagged for a closer look

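Irx1 stood at 7.99 CPM in mutant male 6, far from the other 5 mutant pools, which lay between 1.46 and 3.34 CPM. The gap to the nearest pool was 0.713 of the whole range, above Dixon's 95% critical value of 0.625 for 6 samples. Chance alone flags about 1 in 20 groups, and 12 groups were examined, the 6 members in each of 2 genotypes, at both ends of each. The same pool was highest among mutants for the other 5 Iroquois genes and for Eomes.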

How the results depend on the processing

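Irx1 was lower in mutants in both sexes together, in males and in females under every alternative run, and Irx3 was higher and Irx6 lower in each of these fits. Leaving out 1 library gave Irx1 -1.86 to -1.41 over both sexes, -1.70 to -0.85 in males and -2.19 to -1.79 in females on the log2 scale. Irx2, Irx4 in females and Irx5 in females lay too near 0 to hold a direction. The cause of the changes listed here was not tested, and the fits within library sets in females have 1 library in an arm (1 mutant against 2 wildtype in the high set, 1 wildtype against 2 mutant in the low set) and 1 residual degree of freedom, with the lone library assumed to vary like the others, so their calls carry no weight. Irx1 had 33 to 255 counts per library, the fewest of the family, which limits its precision.

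Over both sexes the number of genes called was 4 with edgeR, 15 with DESeq2, 2 with at least 10 counts in every library, 9 with a term for the mt-Nd6 set and 0 without the 3 libraries highest in Cryaa. Leaving out 1 library gave 1 to 5 genes, 0 to 1 members called and 1 to 4 members at an unadjusted p under 0.05. DESeq2 called 1 member, and without the 3 libraries highest in Cryaa 2 members had an unadjusted p under 0.05. In males DESeq2 called 6 genes against 0 with edgeR. The members at an unadjusted p under 0.05 numbered 1 without the libraries highest in Cryaa, and 1 to 4 with 1 library left out. In females the genes called were 1 with edgeR, 10 with DESeq2, 62 and 61 within the mt-Nd6 high and low sets, 0 without the libraries highest in Cryaa and 0 to 2 with 1 library left out. DESeq2 called 1 member in females, Irx1 at -1.98. The thin mt-Nd6 sets also gave 1 each, Irx1 at -2.31 and -1.89. Members at an unadjusted p under 0.05 numbered 3 in the mt-Nd6 high set, 2 with the set term and 1 to 2 with 1 library left out. For the interaction the mt-Nd6 high set gave 2 genes and 0 members at an unadjusted p under 0.05, and leaving out 1 library gave 1 to 2 such members. The correlation of Irx1 with Eomes among mutants was 0.998 without the 2 farthest libraries, over pools that still spanned both sexes.

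With the replicate number as a block, the genes called were 1 over both sexes and 2 in females, and the 1 member called was Irx1 in females (-1.97). The block left Irx2 in males at -0.00315, Gna14 at -0.00531 over both sexes and Irx3 at 0.00446 for the interaction, each with the opposite sign to the unblocked value. It changed no other call of a member. The term for the mt-Nd6 set added edgeR calls of Lmo2 (adjusted p = 0.00778) and Tbx20 (adjusted p = 0.00352) over both sexes.

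Signs also turned in uncalled values near 0. In the mt-Nd6 low set Irx2 was at 0.0962 over both sexes and 0.0658 in females, Irx5 at 0.0629 in females and Gna14 at -0.0960. In the high set Irx4 was at -0.236 over both sexes and -0.280 in females, Bmp4 at 0.00890, Fgf15 at 0.0667 and Slit1 at -0.112. For the interaction Irx2 was at 0.0589 and Irx3 at 0.0482 in the high set, and Irx3 at 0.0422 without the libraries highest in Cryaa. Irx4 in females was at -0.0220 without those libraries and at -0.00713 with the set term. Irx5 in females was at 0.00374 with DESeq2 size factors, 0.00335 with DESeq2 and 0.00756 with at least 10 counts in every library. Irx2 in males was at -0.00447 with voom and -0.000672 without a filter, and Gna14 at -0.0151 with voom. Leaving out 1 library gave -0.0915 to 0.00276 for Irx2 and -0.157 to 0.208 for Gna14 over both sexes, and -0.121 to 0.0831 for Irx2 in males. In females it gave -0.111 to 0.00837 for Irx2, -0.0220 to 0.240 for Irx4 and -0.0564 to 0.0530 for Irx5. For the interaction it gave -0.148 to 0.0750 for Irx2, -0.264 to 0.117 for Irx3 and -0.211 to 0.0730 for Irx4. For the order in wildtype, CPM without gene length gave log2 ratios of 1.20 for Irx2 over Irx5, 0.03 for Irx5 over Irx4, 0.14 for Irx4 over Irx3, 0.45 for Irx3 over Irx6 and 1.12 for Irx6 over Irx1, since the genes differ in length. Leaving out 1 library gave 0.01 to 0.23 for Irx4 over Irx3 per length. Within the mt-Nd6 high set males had 1 library per genotype, and no fit was made.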
